A study of Mus musculus with 19 samples.

Results

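Glycolysis and glycogen enzymes are described here by 32 genes that were chosen by name, from the glucose transporter to lactate dehydrogenase and from glycogen synthase to the subunits of phosphorylase kinase. All 32 had a probe on the array, with 58 probes of the 41174 that measure transcripts and 32 of 27793 gene names. Glycolysis splits glucose into pyruvate, and lactate dehydrogenase passes pyruvate on to lactate. Muscle also stores glucose as glycogen, which phosphorylase cuts when phosphorylase kinase switches it on. Many of these steps are run by paired genes, a muscle isoform that rises as myoblasts mature into fibres and an isoform found in most tissues, and fast fibres are known for higher glycolytic enzyme levels than slow fibres. By these classes 8 members were muscle isoforms (Hk2, Pfkm, Fbp2, Pgam2, Eno3, Pygm, Phka1 and Phkg1) and 24 were not classed so, a mixed set of genes found in most tissues and of forms best known from liver or brain, with Gys1 and Ldha, which muscle also uses, among them.

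Transcripts were measured on 19 whole mouse genome arrays of a single colour. C2C12 cells, a mouse myoblast line, had been stably transfected with plasmids that carry human wild-type HDAC4 and HDAC5 (6 arrays, called HDAC4 and 5) or with the empty plasmids (6 arrays, called Control), and both groups were kept under hygromycin B and geneticin. HDAC4 and HDAC5 are class IIa histone deacetylases, nuclear co-repressors that bind the muscle transcription factor MEF2, and the cells were taken as myoblasts near 80% confluency, 48 h after seeding. Soleus, a slow muscle of the calf, came from male db/db mice on C57BL6J, obese and diabetic mice whose leptin receptor is defective (4 arrays, called db/db), and from heterozygous littermates (3 arrays, called control soleus), all 12 weeks old and fasted for 5 h. No source used here says whether the cell lines were clones. The methods take a separate culture dish as the replicate but describe fewer biological replicates than the 6 arrays deposited for each group of cells, so some arrays may share a culture, and p-values over 6 arrays may then be too small. In whole muscle, fewer cells of a type and less RNA per cell cannot be told apart.

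Levels are log2 processed signals minus the 75th percentile of the same array, so 0 is a probe as bright as that percentile, and a level is compared only with the same probe on other arrays. That percentile lay between 536 and 1622 intensity units on the Control arrays, 467 and 823 with HDAC4 and 5, 146 and 523 in control soleus and 172 and 653 in db/db soleus. Between 24 and 27 members were well above the local background on each Control array and between 28 and 31 on each control soleus array. Bright spots reached the limit of the scanner. On slide 4, which held control soleus 1 and 2 and db/db 1 and 2, 2 to 4 members were saturated per array, while on slide 5, which held control soleus 3 and db/db 3 and 4, 11 to 14 were. On the 3 slides of cells the number was 4 to 9. Aldoa and Eno3 were saturated on each of the 19 arrays where they were measured, and no fold change of theirs is given, but they stay in the counts and medians of members unless stated. Spots that the scanner software marked as outliers were left out, so some members have fewer arrays in a group. In the cells these were Pfkm (5 arrays of each group) and Aldoa, Tpi1 and Gapdh (5 Control arrays), and in control soleus Pygm, Gbe1, Ugp2 and Ppp1r3c rest on 2 arrays.

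The labels were checked first. The mouse Hdac5 probe read 2.02 to 2.87 (median 2.20) in Control and 3.00 to 4.61 (median 3.69) in HDAC4 and 5, with no overlap. The mouse Hdac4 probe read 0.31 to 0.58 (median 0.44) and 0.29 to 0.60 (median 0.40), which overlap. Both probes were made for the mouse transcripts and the plasmids carry the human genes, so neither is a full check of the label. Myogenic identity genes were well above background for 9 or 10 of 12 in every Control array, and slow fibre genes for 10 or 11 of 11 in every control soleus array. Fast fibre genes were above background for 11 or 12 of 12 on the same arrays, and slow fibre genes for 10 or 11 of 11 in Control cells, so these counts mark muscle genes and not slow muscle.

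The first question was how the glycolytic and glycogen programme of C2C12 myoblasts differed when HDAC4 and 5 were overexpressed. Of the 32 members, 26 were bright enough to test, and 15 passed an adjusted p of 0.05 (limma's moderated test, Benjamini-Hochberg adjustment over all genes tested), 5 higher and 10 lower. Over all 14104 genes tested 67% passed, 36.3% higher and 30.8% lower, so a call here was common and the size of a change says more than the call. The median difference of the 26 members was 0.11 on the log2 scale (-0.04 after quantile normalisation), beside 0.07 over all genes tested, with a range from -3.31 to 3.85. Without Aldoa, Eno3 and Gapdh, saturated on every cell array where they were measured, the median of the other 23 was 0.02, below that of all genes. The largest fitted changes were those of Pfkfb3, which rose, and of Pgam2 and Pfkp, which fell, Pgam2 to signals near background. All 15 moved the same way on each of the 3 slides, and the 5 called genes with several tested probes had every such probe called the same way. These are the arrays that gave the calls, so this agreement is no independent support. Its share over all called genes was not computed. Each slide held 2 Control and 2 HDAC4 and 5 arrays, and with the 2 arrays of a group averaged on each slide, 3 values against 3, 13 of the 26 members passed, 4 higher and 9 lower, beside 54.9% of all genes. Pfkfb1 and Pygb were the members that lost their call, an alternative chosen after seeing the data.

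Pfkfb3, the inducible enzyme that makes fructose 2,6-bisphosphate, the strongest activator of phosphofructokinase, changed most. Its level was -1.34 to -0.98 (median -1.20) in Control and 2.52 to 2.89 (median 2.67) in HDAC4 and 5, with no overlap. The difference was 3.85 ± 0.08 (SE), 14.4-fold, with an adjusted p of 1.12e-13 by limma. A further tested probe of Pfkfb3 gave 3.48, although it was above background on only 1 of 6 Control arrays, and the probe used lies at chr2:11393579-11393638 in mm9. Its relative Pfkfb1, the liver and muscle form, fell by 0.30 ± 0.09 (adjusted p = 0.00763, limma) with overlapping groups, and lost the call after a model-based background correction called normexp (-0.23, adjusted p = 0.0685).

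Pgam2, the muscle form of phosphoglycerate mutase, had the largest fitted fall. It read -2.80 to -2.51 (median -2.62) in Control, where all 6 arrays were well above background, and -6.79 to -4.20 (median -6.15) in HDAC4 and 5, where 1 of 6 was. The fitted difference was -3.31 ± 0.36 (adjusted p = 2.42e-06, limma), and it rests on signals near background, so no fold is given. A gene was tested where 1 of the groups had it above background throughout. Pgam2 was tested only because Control was bright, so its being lower was largely set by that filter. After normexp the difference of Pgam2 was -0.72 with an adjusted p of 0.086, while that of Pfkp was -2.01. The broadly expressed Pgam1 read 5.21 to 6.57 (median 6.37) and 6.09 to 6.94 (median 6.43), saturated on 3 arrays of each group, and was not called. The Pgam2 probe spans chr11:5701822-5703040 in mm9.

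Phosphofructokinase, the committed step of glycolysis, has muscle (Pfkm), liver (Pfkl) and platelet (Pfkp) genes. Pfkp read 1.43 to 2.02 (median 1.87) in Control and -0.53 to -0.04 (median -0.37) in HDAC4 and 5, a difference of -2.15 ± 0.11 (adjusted p = 1.59e-09, limma), 4.43-fold lower. Its 3 probes fell by 2.15, 2.13 and 1.17. Pfkl read 1.60 to 1.70 (median 1.66) and 1.23 to 1.31 (median 1.27) and fell by 0.38 ± 0.04 (adjusted p = 2.16e-06, limma). Neither of these genes had overlapping groups. Pfkm, measured on 5 arrays of each group, read 2.93 to 3.14 (median 2.97) and 2.94 to 3.12 (median 3.11), with an adjusted p of 0.831 for a difference of 0.02 ± 0.07.

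Slc2a1 and Hk2, which bring glucose into the cell and trap it there, rose. Slc2a1, the basal glucose transporter GLUT1, rose by 0.47 ± 0.09 (adjusted p = 0.000384, limma), from 3.83 to 4.19 (median 3.97) to 4.33 to 4.78 (median 4.38). It lost that call after normexp (0.32, adjusted p = 0.052) and in the matrix the authors deposited (0.27, adjusted p = 0.117). Hk2, the insulin-responsive muscle hexokinase, read 3.67 to 3.97 (median 3.76) in Control and 4.24 to 4.50 (median 4.38) in HDAC4 and 5 and rose by 0.57 ± 0.07 (adjusted p = 9.87e-06, limma). The groups did not overlap for either gene. Hk1, the form of most tissues, read 5.23 to 5.99 (median 5.75) and 5.49 to 6.00 (median 5.57) with a difference of -0.06 ± 0.13 and an adjusted p of 0.709 by limma. It was saturated on 1 Control array.

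Further down the pathway, the brain forms of aldolase and enolase moved in opposite directions. Eno2, neuronal enolase, read -1.79 to -1.62 (median -1.67) in Control and -0.37 to -0.06 (median -0.12) in HDAC4 and 5, and rose by 1.49 ± 0.07 (adjusted p = 3.53e-10, limma). Its other probe rose by 1.45. Aldoc, brain aldolase, read -2.94 to -2.67 (median -2.86) and -4.11 to -3.87 (median -4.01), and fell by 1.15 ± 0.06 (adjusted p = 1.77e-09, limma). The groups were apart for both, but after normexp the difference of Aldoc was -0.21 with an adjusted p of 0.499. Eno1, the common enolase, read 2.82 to 3.10 (median 3.00) and 2.30 to 2.82 (median 2.46) and fell by 0.49 ± 0.09 (adjusted p = 0.000235, limma) with overlapping groups, since HDAC4 and 5 array 6 reached the lowest Control array.

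Lactate dehydrogenase has a muscle subunit (Ldha) that favours lactate formation and a heart subunit (Ldhb) that favours its use. Ldhb read 1.20 to 1.68 (median 1.5) in Control and 0.15 to 0.46 (median 0.41) in HDAC4 and 5, with no overlap, and fell by 1.12 ± 0.08 (adjusted p = 5.12e-08, limma). Ldha read 5.34 to 6.69 (median 6.46) and 6.25 to 6.90 (median 6.50). It differed by 0.22 with an adjusted p of 0.351, was saturated on 2 Control arrays, and gave 0.01 with its other probe.

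Steps of the lower trunk were mostly at the limit of the scanner. Gapdh, the dehydrogenase of the trunk, was saturated on every cell array where its brightest probe was measured, and another probe of Gapdh, saturated on 1 Control array, gave 0.04 with an adjusted p of 0.835. Tpi1, triose phosphate isomerase, differed by 0.12 with a probe saturated on 5 Control arrays and 1 HDAC4 and 5 array, and by -0.26 (adjusted p = 0.137) with another probe. Gpi1, the isomerase that follows hexokinase, and Pgk1, phosphoglycerate kinase, were not called, with 0.20 and 0.28 from largely saturated spots. The coordinates deposited for both Pgk1 probes lie on chromosome 3, away from the gene on chromosome X, and Gapdh has near-identical copies elsewhere, so their signal may be shared.

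On the glycogen side, Ugp2, Gbe1 and Gys1 fell, while Gyg, the glycogenin that primes glycogen and is counted below with the other glycogen genes, differed by 0.04 (adjusted p = 0.635, limma). Ugp2, which makes UDP-glucose, read 2.13 to 2.57 (median 2.27) in Control and 1.18 to 1.60 (median 1.49) in HDAC4 and 5, a difference of -0.88 ± 0.09 (adjusted p = 1.36e-06, limma). Gbe1, the branching enzyme, fell by 0.61 ± 0.13 (adjusted p = 0.00114, limma) and Gys1, muscle glycogen synthase, by 0.29 ± 0.05 (adjusted p = 0.000391, limma). The groups did not overlap for any of these genes. Ppp1r3c, a targeting subunit that brings protein phosphatase to glycogen, was well above background on 1 Control array and was not tested.

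Of the phosphorylase genes and the phosphorylase kinase subunits among the members, Pygb rose, Phkb was not called, and the others were too dim to test. Pygb, the brain phosphorylase, read 0.90 to 1.34 (median 1.26) in Control and 1.25 to 1.70 (median 1.39) in HDAC4 and 5. By this probe it rose by 0.27 ± 0.10 (adjusted p = 0.0322, limma) with overlapping groups, and lost the call after normexp (0.18, adjusted p = 0.259), in the deposited matrix (0.07, adjusted p = 0.787) and without a filter on dim probes (0.27, adjusted p = 0.082). The other Pygb probe, dimmer but above background on all 12 cell arrays, rose by 0.51 in a fit of all probes (adjusted p = 0.000671, limma), with no overlap. Pygm, the muscle phosphorylase lost in McArdle disease, was on none of the 12 cell arrays well above background, at -7.43 to -6.92 (median -7.13) and -7.50 to -6.19 (median -6.87). The liver form Pygl and Phkg1, the muscle catalytic subunit of phosphorylase kinase, were also above background on no array of the cells. Phkg1 read -8.21 to -6.71 (median -7.64) and -8.05 to -6.53 (median -7.39). Phka1, the muscle regulatory subunit, was above background on 3 Control and 4 HDAC4 and 5 arrays, at -5.39 to -4.58 (median -5.16) and -5.02 to -4.49 (median -4.69). Fbp2, muscle fructose bisphosphatase, was above background on 1 HDAC4 and 5 array, and Phkb, the shared subunit, differed by 0.11 without a call.

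**Figure D1:**
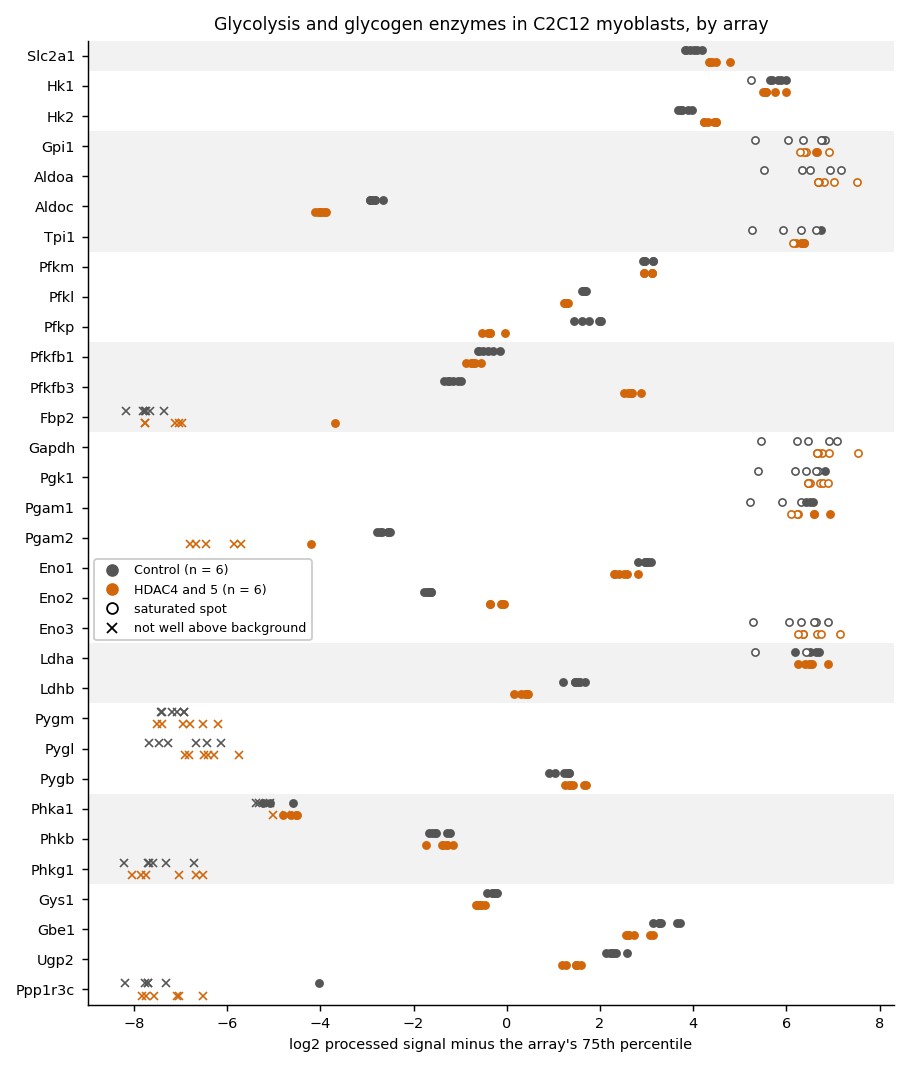
Level of each of the 32 members on each C2C12 array, as log2 processed signal minus the array's 75th percentile, with Control in grey and HDAC4 and 5 in orange (n = 6 each, points are arrays), open circles for saturated spots and crosses for spots not well above background. Pfkfb3 lies at -1.34 to -0.98 in Control and 2.52 to 2.89 in HDAC4 and 5, and Pgam2 and Pfkp are displaced the other way.

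Did the isoforms of a step change unequally? For 9 pairs the difference between both probes on the same array was compared between groups by an exact two-sided permutation test, with p adjusted over the 9 pairs. The smallest p that 6 against 6 arrays allow is 0.00216, and 3 against 3 slide means could not go below 0.1. Of the 8 pairs whose probes were not saturated throughout, 5 passed. Hk2 rose against Hk1 by 0.63 ± 0.11 (adjusted p = 0.013, exact permutation). Pfkm rose against Pfkl by 0.41 ± 0.07 and against Pfkp by 2.12 ± 0.11 (adjusted p = 0.013 each, exact permutation, n = 5 and 5). Ldha rose against Ldhb by 1.35 ± 0.24 (adjusted p = 0.00974, exact permutation). Pgam2 went the other way, with a change of -3.61 ± 0.46 against Pgam1 (adjusted p = 0.00974, exact permutation), and after normexp this was -0.91 with an adjusted p of 0.156. The size of this change is uncertain, since Pgam2 was above background on 1 of 6 HDAC4 and 5 arrays. Pgam1 was saturated on 3 arrays of each group. The filter on dim genes was not applied to the pairs. The call of Pgam2 alone, given above, passed that filter only through Control.

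In 3 of the 5 pairs that passed, those of Pfkm and Ldha, the partner had fallen while the gene named first was not called. The gene named first was itself called in the hexokinase pair, where it rose, and in the mutase pair, where it fell. Pairs with a dim muscle gene were Pygm and Pygb (-0.00, adjusted p = 0.996, exact permutation), Phka1 and Phka2 (-0.16, adjusted p = 0.285, exact permutation) and Phkg1 and Phkg2 (0.58, adjusted p = 0.178, exact permutation). Phka2, the regulatory subunit of liver, read 0.98 to 1.32 (median 1.16) in Control and 1.58 to 1.93 (median 1.69) in HDAC4 and 5, with no overlap. Phkg2, the catalytic subunit of liver and testis, read 1.78 to 2.15 (median 1.94) and 1.45 to 1.82 (median 1.58), which overlap. The last pair passed after normexp, with 1.16 and an adjusted p of 0.00974, although Phkg1 was above background on no cell array.

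**Figure D2:**
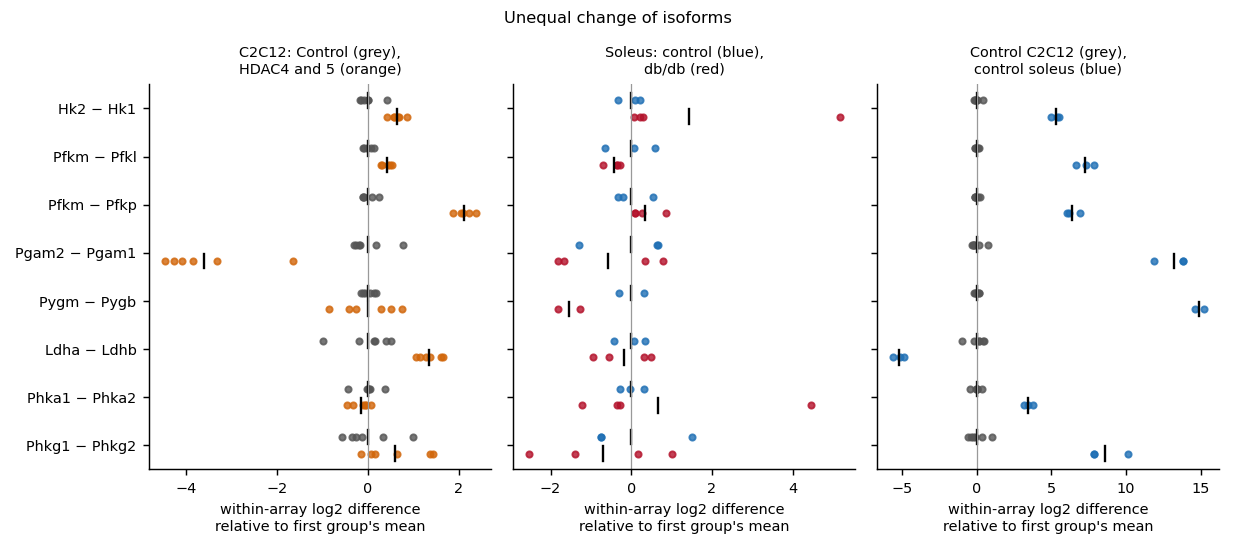
Within-array log2 difference between the genes of each pair, relative to the mean of the group named first, for the cells, the soleus and the tissue comparison (points are arrays, bars are group means), without the saturated Eno3 pair and with Pygm and Phkg1 above background on no C2C12 array. In the cells the Pgam2 pair moves down by 3.61 and the Pfkm and Pfkp pair up by 2.12, and the db/db and control soleus points overlap or rest on 2 arrays a group.

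The sequence before the start of Pgam2 and Pgam1 is shown because these genes of a single step had the largest fitted difference of a pair, although it rests on Pgam2 signals near background, that of Pygm as a muscle gene below background in the cells, and those of Pfkfb3 as the member that rose most. RefSeq promoters (GRCm38.p6) were found for all 32 members, 47 in all. In these runs of 250 bases before the start, capitals mark letters of the E-box that myogenic factors prefer (CAGCTG), of the MEF2 site, of the cores of the hypoxia element (ACGTG or GCGTG) or of the TATA box (TATAAA), on either strand.
Pgam2, chr11:5803797-5804046, minus strand: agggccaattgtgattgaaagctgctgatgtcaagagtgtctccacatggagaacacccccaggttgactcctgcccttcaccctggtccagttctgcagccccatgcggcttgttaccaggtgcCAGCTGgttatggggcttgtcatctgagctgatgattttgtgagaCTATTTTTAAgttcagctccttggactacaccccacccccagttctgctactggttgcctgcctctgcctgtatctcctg
Pgam1, chr19:41911621-41911870, plus strand: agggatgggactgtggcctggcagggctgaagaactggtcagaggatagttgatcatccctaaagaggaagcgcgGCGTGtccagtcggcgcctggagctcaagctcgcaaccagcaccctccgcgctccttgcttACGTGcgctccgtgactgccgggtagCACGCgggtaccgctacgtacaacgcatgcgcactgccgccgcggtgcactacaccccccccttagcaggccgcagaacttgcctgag
Pygm, chr19:6384158-6384407, plus strand: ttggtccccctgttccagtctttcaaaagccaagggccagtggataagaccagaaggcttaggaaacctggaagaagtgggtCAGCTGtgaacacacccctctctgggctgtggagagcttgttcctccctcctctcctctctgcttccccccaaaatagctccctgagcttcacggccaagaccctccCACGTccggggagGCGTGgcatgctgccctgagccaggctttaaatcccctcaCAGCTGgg
Pfkfb3, chr2:11553930-11554179, minus strand: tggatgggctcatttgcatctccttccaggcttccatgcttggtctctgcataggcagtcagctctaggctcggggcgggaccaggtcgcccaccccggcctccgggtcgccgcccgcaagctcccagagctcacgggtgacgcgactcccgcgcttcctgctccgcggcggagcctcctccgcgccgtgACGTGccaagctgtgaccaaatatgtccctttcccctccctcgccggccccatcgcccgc
Pfkfb3, chr2:11502091-11502340, minus strand: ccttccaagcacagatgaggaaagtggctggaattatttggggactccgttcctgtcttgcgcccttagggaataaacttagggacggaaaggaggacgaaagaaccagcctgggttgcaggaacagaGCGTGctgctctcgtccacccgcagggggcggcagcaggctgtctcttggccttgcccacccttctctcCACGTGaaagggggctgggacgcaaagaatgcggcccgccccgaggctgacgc

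Pgam2 held a MEF2 match 80 to 71 bases and a CAGCTG 125 to 120 bases before its start, and Pygm held CAGCTG 168 to 163 and 8 to 3 bases before. Pgam1 and both starts of Pfkfb3 held no match to either motif in these windows. Hypoxia cores were in the windows of Pgam1, Pygm and both starts of Pfkfb3. CAGCTG, which is also counted in the general E-box CANNTG, was in 13% of the 32851 mouse promoters of this length and in 19.1% of the member promoters, from 4 of 8 muscle isoforms and 5 of the other 24 members. A MEF2 match was in 2.92% of all promoters and among the members in those of Pgam2 and Pfkfb1. The core ACGTG was in 16.6% of all and 36.2% of member promoters, and GCGTG in 28.2% and 53.2%. TATAAA was in 12.4% of all and 4.26% of member promoters, and the general E-box in 66.2% and 70.2%. These are matches of letters, and no binding was measured on these arrays.

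Around the members, genes of the same pathways that were not among the 32 moved in both directions in the cells. Of 10 other glycolysis genes tested, 2 were higher and 6 lower, with a median of -0.42, and after normexp 1 was higher and 3 lower. Of the 10, 2 were tested only because Control was bright, so their direction was largely set by the filter. Slc2a4, the insulin-regulated transporter GLUT4, was at least 1.46-fold lower, since it was above background on no HDAC4 and 5 array. Pfkfb4 differed by -1.74 and Slc16a3, the lactate exporter MCT4, by -1.37. Of 9 other glycogen genes, 4 were higher and 2 lower with a median of 0.12, led by Gaa, the lysosomal glucosidase (1.35), Stbd1, which tethers glycogen to membranes (-1.31), and Phka2 (0.57). Of the 9, 1 was tested only because Control was bright.

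Regulators of glycolytic genes were lower for 8 and higher for 5 of 15 tested, with a median of -0.30. Of the 15, 3 were tested only because Control was bright, so their direction was largely set by the filter. The myogenic factors in that list fell furthest, with Myod1 at least 257-fold lower, Mef2c at least 8.7-fold lower and Myog at -9.65. Targets of hypoxia-inducible factor outside glycolysis were higher for 8 and lower for 4 of 13, with a median of 0.34, and 1 of the 13 was tested only because Control was bright. Pdk1 differed by -1.73, Ankrd37 by -1.62 and Ndrg1 by 1.59.

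Muscle identity genes also differed between the groups of cells. All 10 myogenic identity genes tested were lower (median -6.63), as were 9 of 9 fast fibre genes (median -6.62), while of 11 slow fibre genes 9 were lower and 2 higher (median -3.52). Of these, 6 of the 10 myogenic, 4 of the 9 fast and 6 of the 11 slow fibre genes were tested only because Control was bright, so their fall was largely set by that filter. These medians stay at the same values when the genes below background throughout a group are set to their bound. After normexp 6 of the 9 fast fibre genes were called lower (median -4.44), and the slow fibre median was -1.17. The summed signal of the fast fibre list, led by Mylpf, was 73.5 to 117 times the 75th percentile in Control and 0.874 to 1.37 times in HDAC4 and 5. For the myogenic identity list, led by Chrna1, it was 168 to 349 and 6.41 to 9.06, and for the slow fibre list, led by Tpm3, 57.2 to 105 and 71.8 to 93.5. The part of this difference in muscle programme in the values of the members was not tested.

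Markers of other cell types gave no common direction. Of fibroblast markers 3 were higher and 2 lower of 5 tested (Col1a1 3.36, Col1a2 -2.43, Pdgfra 2.20), and of macrophage markers 2 were higher and 1 lower of 3 (Lyz2 at least 4.29-fold higher, Cd14 1.65, Cd68 -0.40). Adipocyte markers gave 1 of each (Lpl -3.16, Fabp4 2.16) and the erythrocyte marker Hba-a1 fell by 2.37. Fabp4 and 1 of the higher macrophage markers were tested only because HDAC4 and 5 was bright, so their being higher was largely set by the filter. No endothelial marker of 5 was above background on any cell array.

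**Figure D3:**
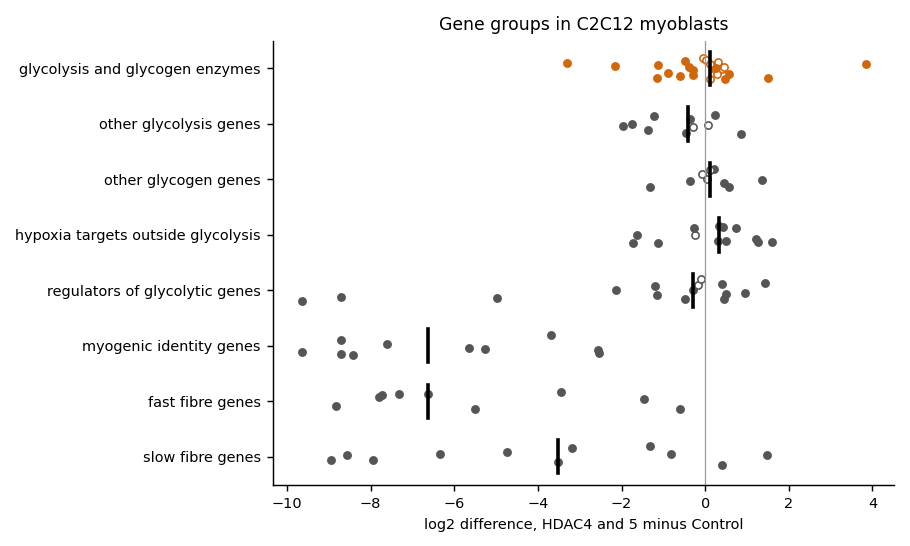
Log2 difference between HDAC4 and 5 and Control for the tested genes of each list (points are genes, filled where the adjusted p is at most 0.05, black bars are medians). The median of the members is 0.11 (-0.04 after quantile normalisation, and 0.02 without the 3 members saturated throughout, which are plotted) and they run from -3.31 to 3.85, and the medians of the myogenic identity and fast fibre lists are -6.63 and -6.62.

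The second question was whether the same enzymes differed in the soleus of db/db mice. Of the 30 members tested, 0 passed the adjusted p by limma, and the methods' t-test also called 0. Over all 12989 genes tested 0.0154% passed. At an unadjusted p of 0.05 the members held 1 gene, Pygb, beside 5.91% of all genes, and 2 members, Pygb and Ugp2, had groups that did not overlap, beside 9.51% of all genes. The median difference of the members was -0.09 (-0.06 without Aldoa and Eno3), beside 0.14 over all genes tested, and 12 of the 30 were higher in db/db. These values took no account of slide, and slide 5 held 1 control soleus and 2 db/db arrays. Within slides some members changed sign. Pfkm went from -0.03 to 0.09 on slide 4 and 0.08 on slide 5. Ppp1r3c went from 0.88 to -0.06 on slide 4, the only slide where both groups had it measured.

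Pygb read -1.52, -2.86 and -0.91 in control soleus 1 to 3 and -0.28, -0.35, -0.78 and -0.34 in db/db 1 to 4. The difference was 1.32 ± 0.47 (adjusted p = 0.765, limma), with 1.87 on slide 4 and 0.35 on slide 5. Without control soleus 2 it was 0.78, and the other Pygb probe gave 1.62. Ugp2 read 5.86 and 5.94 in control soleus 1 and 2, and 6.04, 5.95 and a saturated 7.63 in db/db 1 to 3, and it differed by 0.64 with this probe and by -1.07 with its other probe. Gys1 read 2.54, 1.63 and 2.80 in control soleus and 3.64, 2.76, 3.83 and 2.96 in db/db, a difference of 0.97 ± 0.43 (adjusted p = 0.839, limma). Gys1 overlapped across slides, while within each slide both db/db arrays lay above the control arrays, by 1.11 on slide 4 and 0.60 on slide 5 on average. With slide as a block its adjusted p was 0.291 by limma, so it was not called. Gys1 was named here after its values were seen, and the share of all genes that separate so within slides was not computed.

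In soleus the muscle isoforms ranged from saturated (Eno3) to below the 75th percentile on every array (Phka1). Hk2 read 7.10, 6.83 and 7.02 in control soleus and 7.30, 6.69, 7.24 and 6.96 in db/db, saturated on slide 5, and Hk1 read 4.05, 3.24 and 3.55 and -1.24, 3.26, 3.58 and 3.39. The low Hk1 value belongs to db/db 1, and without it the Hk1 difference of -1.37 was -0.21. The same array was also lowest for Phka2, which read 0.79, 0.60 and 0.54 in control soleus and -2.58, 1.27, 1.26 and 0.88 in db/db.

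Pfkm read 7.58, 7.95 and 7.10 in control soleus and 8.14, 7.58, 7.34 and 7.02 in db/db. Pfkl read -0.39, -1.24 and -1.59 and -0.20, -0.70, -0.58 and -1.24. Pfkp read 0.30, -0.19 and -0.31 and 0.26, -0.12, -1.15 and -0.68. The groups overlapped for each of these genes, and the 3 Pfkm values of slide 5 were saturated.

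Pgam2 read 8.16, 8.29 and 7.02 in control soleus and 8.35, 7.75, 7.26 and 6.94 in db/db, with the slide 5 values saturated, and Pgam1 read 3.15, 3.25 and 3.92 and 3.19, 3.02, 4.70 and 4.21. Ldha read 7.58, 8.44 and 7.16 and 7.31, 7.22, 7.40 and 7.13. Ldhb read 8.38, 8.75 and 7.19 and 8.65, 8.16, 7.29 and 7.20. For Pgam2 and Ldhb the slide 5 arrays lay lower than every slide 4 array in both groups, and the spots of all 3 of Pgam2, Ldha and Ldhb were at the limit of the scanner on slide 5.

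Pygm was measured on slide 4 only, at 4.71 and 4.00 in control soleus and 4.99 and 4.38 in db/db. Phka1 read -2.05, -1.91 and -2.55 and -0.93, -1.83, -2.77 and -2.28. Phkg1 read -0.33, -0.26 and 1.16 and -0.24, -1.78, 1.01 and 0.04, and Phkg2 1.28, 1.37 and 0.52 and 2.03, 1.63, 0.87 and 0.74. The groups overlapped for all 4 genes. Eno1 was above background on 2 of 3 control soleus arrays, at -1.49 and -0.35, read -3.24 on control soleus 2, and read -5.14, -2.11, -0.39 and -0.78 in db/db.

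Of the members with the largest changes in the cells, Pfkfb3 read 1.38, 1.37 and 2.05 in control soleus and 2.53, 1.33 and 1.98 in db/db 1, 2 and 4, which overlap. Aldoc read -2.83, -3.12 and -3.40 in control soleus and -5.19, -2.46, -2.64 and -3.39 in db/db, which overlap. Eno2 read -5.41, -2.80 and -3.61 and -3.23, -4.22, -3.97 and -3.51, was above background on 1 array of each group and was not tested. None of the 9 isoform pairs passed, with adjusted p-values from 0.804 to 1 by exact permutation, a test that could hardly pass here. The smallest raw p is 0.0286 for 3 against 4 arrays, 0.1 for the Eno3 pair and 0.333 for the Pygm pair, and a lone pair at 0.0286 has an adjusted p of 0.257 over 9 pairs, so 6 pairs would have had to lie at that limit together.

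**Figure D4:**
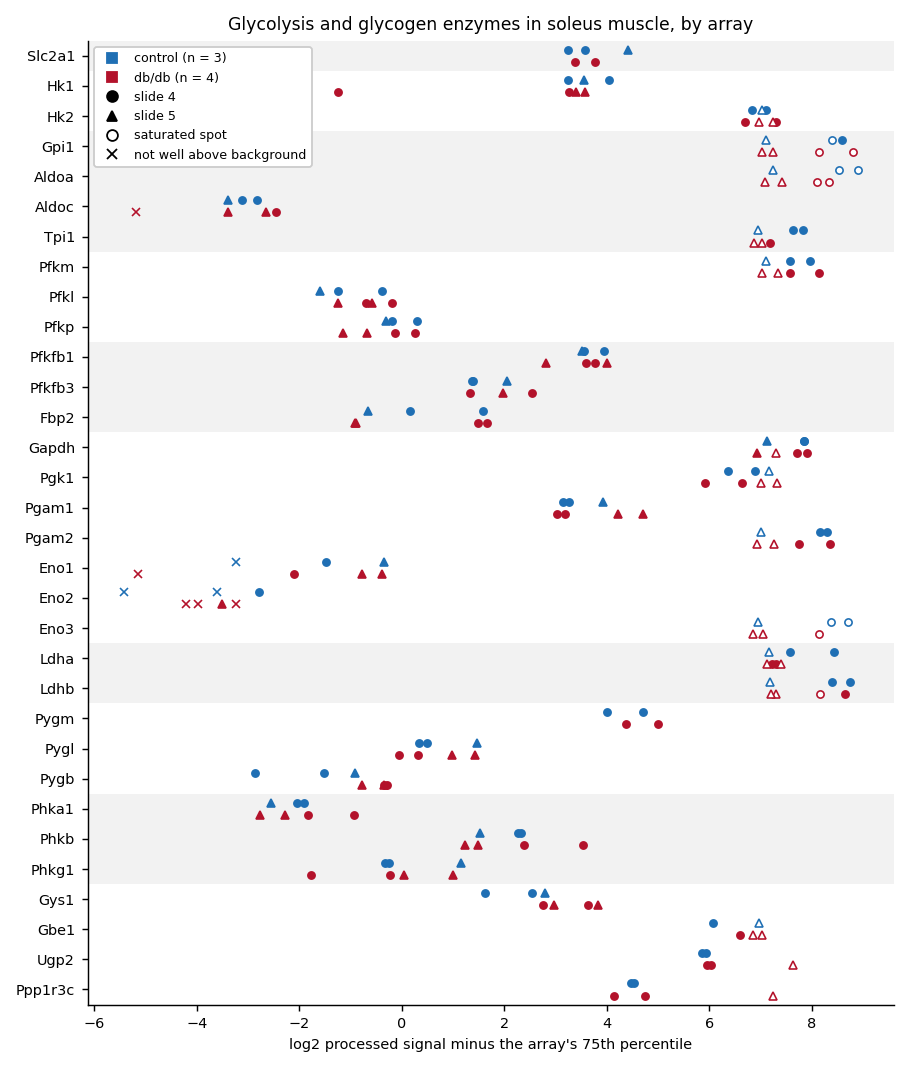
Level of each member on each soleus array, as log2 processed signal minus the array's 75th percentile, for control (blue, n = 3) and db/db (red, n = 4), with circles for slide 4, triangles for slide 5, open symbols for saturated spots and crosses for spots not well above background. Hk1 of db/db 1 lies apart at -1.24, and bright genes such as Pgam2 and Ldhb are lower and saturated on slide 5.

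Other lists in soleus held 1 called gene, Lep, the adipocyte hormone leptin, at 3.79 (adjusted p = 0.033, limma), above background on 1 of 3 control soleus arrays. Lep was tested only because db/db was bright, so its being higher was largely set by the filter. The fast fibre list had a median of -0.37, with Myh4 at -2.93 (adjusted p = 0.753, limma), and the slow fibre list 0.08. Of the other glycolysis genes Slc16a3 differed by -1.17 and Slc16a1 by 0.67, and of the other glycogen genes Ppp1r3f by 1.32, without a call. Of the 13 other glycogen genes tested, 2 were tested only because db/db was bright. Summed adipocyte markers, led by Lpl, were 746 and 813 times the 75th percentile in control soleus and 729 and 610 in db/db on slide 4. On slide 5 they were 393 against 423 and 358. The median log2 level of this list was 3.71 and 2.64 against 3.62 and 3.76 on slide 4. On slide 5 it was 3.34 against 5.07 and 4.77. Summed endothelial markers were 35.3 and 38.3 in control soleus and 28.2 and 15.3 in db/db on slide 4, and 49.5 against 40.3 and 25.7 on slide 5, lower in db/db within each slide. Macrophage markers were 38.1 to 141 and 47.1 to 148, and erythrocyte markers 19.6 to 157 and 93.7 to 184. Fibroblast markers were 462 and 414 in control soleus and 210 and 169 in db/db on slide 4, and 616 against 450 and 579 on slide 5. Their part in the values of the members was not tested.

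The third comparison set control soleus against Control C2C12 cells, to place each member between myoblast and muscle. It shares its Control arrays with the comparison in cells and its soleus arrays with that in mice. Cells and muscle never shared a slide, so source and slide cannot be told apart beyond the spread between slides, which the fit took as a random block. Of 32 members 24 were called, 18 higher and 6 lower in soleus, beside 65.5% of all 14997 genes, 32.6% higher and 32.9% lower. This excess of higher calls was absent in the deposited matrix, where fewer members could be tested. The count also moved with the control soleus array left out, as given in the closing section. The median difference of the members was 2.12, and 2.78 without the saturated Aldoa and Eno3, beside -0.04 over all genes tested.

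All 8 muscle isoforms were called higher in soleus, against 10 of the other 24 members, of which 6 were lower and 8 not called. The classes were chosen with earlier results of these data known, so this contrast is no independent support for them. Gys1 and Pfkfb1, which muscle also uses, are among the 10. A gene was tested where either group had it above background throughout, so Pygm, Fbp2, Phkg1 and Phka1 of the 8, and Pygl and Ppp1r3c of the 10, were tested only because soleus was bright, and their being higher was largely set by that filter. Of the members above background throughout Control, without Aldoa and Eno3, 3 of 3 muscle isoforms and 8 of 21 others were higher. Eno3 is counted among the 8 from saturated spots and was -0.02 after quantile normalisation, and Gpi1 among the 10 from spots saturated on all 6 Control and 2 of 3 soleus arrays. Pgam2 was higher by 10.31 ± 0.31 (adjusted p = 2.79e-09, limma), Pfkm by 4.43 ± 0.27 (adjusted p = 6.35e-07, limma), Hk2 by 3.19 ± 0.20 (adjusted p = 2.71e-07, limma) and Phka1 by 2.87, with Phka1 above background on 3 of 6 Control arrays. Pgam2, Pfkm and Hk2 were each saturated on 1 of 3 control soleus arrays, so their sizes are uncertain. Pygm was at least 958-fold higher, Fbp2 at least 60-fold and Phkg1 at least 53.4-fold, since none of them was well above background on any Control array. These lower bounds set the soleus mean against the dimmest level well above background on each Control array, and that of Pygm rests on 2 soleus arrays.

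Among the other members, most of those of glycogen metabolism were higher in soleus. Ppp1r3c was called higher (adjusted p = 0.000525, limma), but the size is uncertain, with a fitted 11.62 from 2 soleus arrays and 1 of 6 Control arrays above background and 9.16 from its other probe. Pygl was at least 79.7-fold higher, and Ugp2, Phkb and Gys1 were higher by 3.60 (2 soleus arrays), 3.42 and 2.70. Gbe1 was called higher with 3.13 from 2 soleus arrays, 1 of them saturated. Pygb was lower, at -2.79. Ldhb, the subunit of oxidative muscle and heart, was higher by 6.46 ± 0.38 (adjusted p = 1.62e-07, limma), with 1 of 3 control soleus arrays saturated. The bifunctional enzymes Pfkfb1 and Pfkfb3 were higher by 4.07 and 2.86.

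Lower in soleus were Pygb and 5 glycolytic genes not classed as muscle isoforms. Eno1 had a fitted difference of -4.43 ± 0.74 (adjusted p = 0.000388, limma), and Pfkl differed by -2.83, Pgam1 by -2.63, Hk1 by -2.11 and Pfkp by -1.91. Eno1 was above background on 2 of 3 control soleus arrays. It was tested only because Control was bright, so its being lower was largely set by the filter. Of the 6 called genes with several tested probes, 4 had every probe called the same way. All 5 tested probes of Hk1 were lower. A further Hk1 probe, above background on all 3 control soleus arrays, gave -3.64, a larger fall than the probe used. The Hk1 probes at -4.16, -3.97 and -0.99 were above background on 1, 0 and 0 of these arrays. They were tested only because Control was bright, and their values are fitted and not measured sizes. Of the further Pfkp probes 1 gave -2.63 (adjusted p = 0.00876, limma over all probes) and 1 gave 0.01, and the other Pygb probe, at -2.06, was not called. Each of these probes was above background on 2 of 3 control soleus arrays. The 8 that were not called were Slc2a1 (-0.11), Aldoc, Eno2 and 5 genes with saturated spots, Aldoa, Tpi1, Gapdh, Pgk1 and Ldha. In a fit of all probes rather than of 1 probe per gene, both Eno2 probes passed (-2.20, adjusted p = 0.0482, and -1.18, adjusted p = 0.0217, limma). Both were above background on 1 of 3 control soleus arrays. They were tested only because Control was bright, so their being lower was largely set by the filter. The other probes of Ldha (1.02, adjusted p = 0.0435, limma) and Pgk1 (0.93, adjusted p = 0.0388, limma) also passed in that fit.

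In 5 pairs both genes were above background on every array where they were measured, and all 5 passed, 4 of them toward the gene named first. Pgam2 rose against Pgam1 by 13.17, with Pgam1 saturated on 3 Control arrays, Pfkm against Pfkl by 7.26 and against Pfkp by 6.35, and Hk2 against Hk1 by 5.28 (adjusted p at most 0.0201 each, exact permutation). These sizes include saturated spots of Pgam2, Pfkm, Hk2, Ldha and Ldhb on control soleus 3, of Ldha on 2 Control arrays and of Hk1 on 1 Control array. The pairs of Pygm, Phkg1 and Phka1 are given no size, since these genes were above background on 0, 0 and 3 of 6 Control arrays. Ldha against Ldhb went the other way, by -5.20 (adjusted p = 0.0179, exact permutation). The permutation exchanged single arrays and took no account of slide, although cells and muscle lay on different slides. The p-values of these pairs may therefore be too small.

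**Figure D5:**
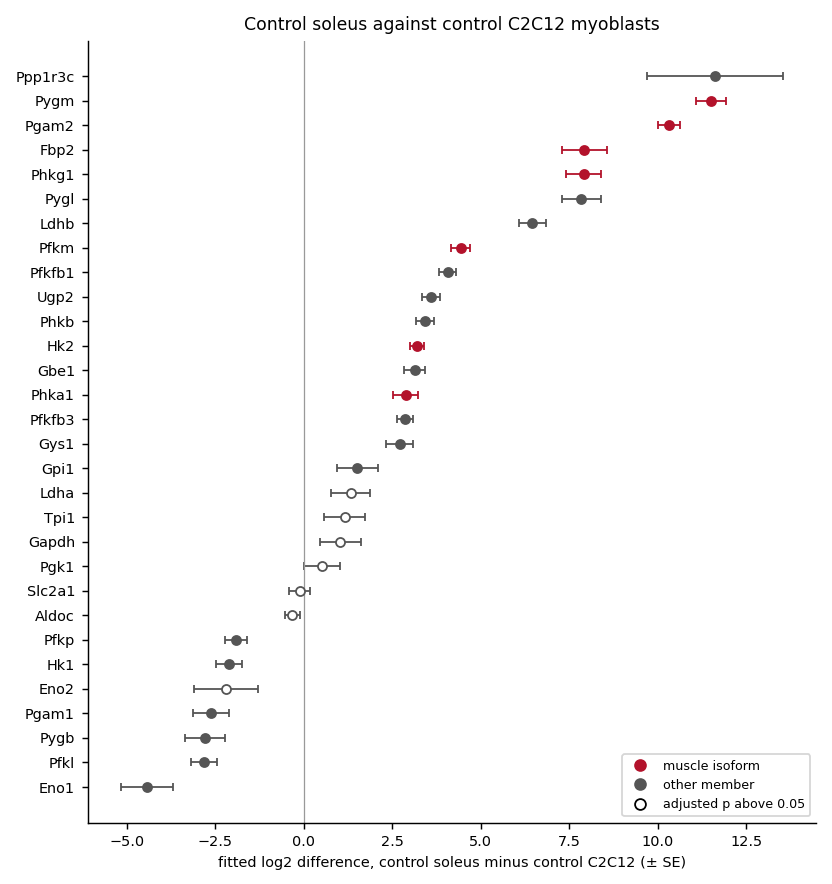
Fitted log2 difference (± SE) between control soleus (n = 3) and Control C2C12 cells (n = 6) for each member except Aldoa and Eno3, which were saturated on every array, with muscle isoforms in red, other members in grey and open points for an adjusted p above 0.05. All red points lie above 0 and Eno1 (above background on 2 of 3 soleus arrays) is at -4.43, while the positions of Pygm, Fbp2, Phkg1 and Pygl, above background on no Control array, are fitted values and not measured sizes.

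Set side by side, Pgam2 differed by -3.31 with HDAC4 and 5, by -0.25 in db/db soleus and by 10.31 between soleus and cells. Pfkfb3 differed by 3.85, 0.35 and 2.86, and Hk2 by 0.57, 0.07 and 3.19. Pfkp differed by -2.15, -0.35 and -1.91, and Ldhb by -1.12, -0.29 and 6.46. Of the fibre lists, 11 of 12 fast and 10 of 11 slow fibre genes were higher in soleus than in the cells. Other glycogen genes were higher for 8 and lower for 3 of 13, led by Ppp1r3a (10.45), the muscle glycogen targeting subunit, and other glycolysis genes for 5 and 1 of 10, led by Slc2a4 (12.00) and Slc16a3 (8.10). Adipocyte markers were higher for 7 of 7, fibroblast markers for 6 of 6, endothelial markers for 5 of 5, macrophage markers for 5 of 6 and erythrocyte markers for 2 of 2. All 5 endothelial markers, 6 of the 7 adipocyte, 2 of the 6 fibroblast, 4 of the 6 macrophage and 1 of the 2 erythrocyte markers were tested only because soleus was bright, as were 3 of the 12 fast fibre and 4 of the 13 other glycogen genes, so their direction was largely set by that filter. Their part in the values of the members was not tested.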

How the data were processed

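The authors scanned 1-colour Agilent arrays (labels and headers name Agilent Feature Extraction 9.5.1.1), 1 sample an array, and deposited processed intensity, mean and background intensity, and flags per spot, on mm9. They also deposited a matrix of signals divided by a constant per array (a ratio to about the array's median), used as an alternative by group only, since its columns for db/db 1 to 4 lay closest to the scanner signals of db/db 3, 4, 2 and 1. Replicate numbers here follow the scanner files. The 32 members, the classes and the other lists were chosen with earlier results of these data known. Here control spots and outlier flags were left out, spots of a probe averaged, log2 processed intensity centred on each array's 75th percentile, and 1 probe kept per gene, the brightest over all arrays. A gene was tested where 1 of the groups compared had it well above background throughout. Tests used limma (3.58.1, R 4.3.3), also tested on simulated data, at an adjusted p of 0.05. The fit for soleus against cells took slide as a random block.

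Values by array (in the cells their range and median) were given for both genes of each isoform pair, except the saturated Eno3, and for the 6 members that changed most in the cells. Of each other list at most 3 called genes, or 2 where none was called, were named, except 1 gene that is not reported here. Lep, Myh4, Gyg, the soleus values of Gys1 and Ugp2, and the probes of Hdac4 and Hdac5 were added after their values were seen. Alternatives changed scaling, background correction (normexp, offset 50), dim filter, probe choice, file, block, test and replicates. Equal replicate numbers lay on the same slide, and deviations of same-numbered arrays correlated at 0.186 to 0.547 in cells and 0.426 to 0.691 in soleus, while other numbers on the same slide reached 0.528 and 0.743, so the number carries the slide. The number of arrays limits precision. Promoters are from RefSeq (GRCm38.p6), and no mm9 annotation was used here.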

Additional observations from a re-analysis of the deposited data

Results flagged for a closer look

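In groups of 4 to 6 arrays, 72 sets of member values were screened for a lone high or low array, and 6 stood apart, where chance gives 3.6. Slc2a1 read 4.78 on HDAC4 and 5 array 6, above the next at 4.50. On the same array Pfkp read -0.0397, above the next at -0.36, and Gapdh read 7.53, above the next at 6.92 and with a saturated spot. Ldha read 5.34 on Control array 3, below the next at 6.19 and with a saturated spot. Hk1 read -1.24 in db/db 1, below the next at 3.26, while the Hk1 difference by another probe was 0.27. Pygb read -0.78 in db/db 3, below the next at -0.35.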

How the results depend on the processing

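The number of members called in the cells was 15 under most alternatives, 10 after normexp, 12 in the deposited matrix, where 23 could be tested, 14 of 25 with a stricter filter on dim probes, 15 of 32 without one, although Pygb lost its call, 13 with the arrays of a group averaged on each slide (chosen after seeing the data) and 8 when a fold of at least 1.5 was also asked. With the replicate block it was 15 in the cells and 0 in soleus. In soleus it was 0 under each alternative run, also without any of the arrays (0 to 0) and on slide 4 alone, an alternative chosen after seeing the data. For soleus against cells, 24 members were called, 15 in the deposited matrix (7 higher and 8 lower), where 16 could be tested, and 19 to 29 without a control soleus array, with 19 without array 1 and 29 without array 3. Apart from the averaged arrays, no share over all genes is given for these alternatives. The counts therefore show how the calls depend on processing and are no result about the members. Of the pairs, Pgam2 against Pgam1 was -0.91 after normexp (adjusted p = 0.156, exact permutation), Phkg1 against Phkg2 was 1.16 (adjusted p = 0.00974, exact permutation) and Ldha against Ldhb was 1.91 within slide 2; the cause was not tested. Single members that lost their call in the cells after normexp were Pgam2 (-0.72), Aldoc (-0.21), Pfkfb1 (-0.23), Pygb (0.18) and Slc2a1 (0.32). The saturated Eno3 turned from higher to -0.016 in soleus against cells after quantile normalisation. That scaling moved the median of all probes by -0.13 there, by -0.02 in the cells and by -0.06 in soleus. Saturated members per array were most numerous on slide 5, and Pygm and Phkg1 were above background on no cell array and Pgam2 on 1 HDAC4 and 5 array.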
